A study of Mus musculus and Homo sapiens and blank sample with 8 samples.

Results

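HEK293T outputs 1 and 2 are 2 of the 7 output libraries of a massively parallel reporter assay, MAE-seq, and their data are 2 lists of effective loci. HEK293T is a line of human embryonic kidney cells that carries the large T antigen of SV40. An effective locus is a 25-bp position of hg19 to which a recovered fragment was aligned and at which the output exceeded the input in the authors' Poisson test. All entries of both lists were taken, 74104 for output 1 and 57843 for output 2, together 131947 of the 1271239 entries of the output lists of the series, at 81541 distinct positions. The loci were thus chosen on their measured reads against the input, so the number of listed loci and their excess over the input are a description of that choice. Of the loci that the authors tested, 59.8% were listed for output 1 (74104 of 124010) and 70.3% for output 2 (57843 of 82226).

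Synthetic random 25-bp fragments had been placed before a mini promoter that drives mCherry, a red fluorescent reporter, and the cells were transfected with this plasmid library and collected after 48 h, with 5 to 15 PCR cycles in the amplification of the recovered DNA. For the input the study's methods give 15 cycles. The outputs were amplified from sorted fluorescent HEK293T cells, and the 1 input from transfected cells that were not sorted and whose cell line is not named in the labels. The labels name lipo3000 as the transfection reagent and the study's methods FuGENE HD, and whether both outputs came from separate cultures is not stated. The fragments were read from a plasmid, so a position in a gene tells where the sequence occurs in the genome and not what that gene did in these cells.

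Enhancers are short stretches of DNA that bind transcription factors and raise transcription from a promoter, in their chromosome as well as on a plasmid. A reporter plasmid removes the chromatin of the native site, so the readout depends on the sequence of the fragment and on the factors present in the cell. Factors such as Sp1, NRF1, NF-Y, E2F and Ets proteins are found in most cell types, while others, such as octamer or Gata factors, are abundant in particular lineages.

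The sequences below are those of hg19 at the loci (plus strand, starts counted from 1), and the fragments themselves may differ from them at up to 2 bases, since the authors allowed 2 mismatches. The lists give no strand. Those of 5 of the 6 loci with the most reads over both outputs are shown first, because they are the strongest members of both lists, with the longest unbroken run of at least 6 purines (A or G) or 6 pyrimidines (C or T) in capitals where there was one, and the first of them where 2 were equally long.
GTDC1 intron, chr2:145005697-145005721: gtaaaacacagaaacaatctaaacg
intergenic, chr22:19592599-19592623: gtagtGAGGGAcacttgttggggag
intergenic, chr5:19308533-19308557: tttgcagttggaggtctgtgaggtg
intergenic, chr10:44072370-44072394: gaggTCCTTCTCTCTCTTCTgtatt
intergenic, chr22:22268562-22268586: ccagattgaacccAGGAGGtcgagg

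The next 4 are loci of both lists in which at least 20 of the 25 bases were purines, or at least 20 were pyrimidines, a composition that was more frequent in the lists than in the input (below). They are among the loci of this kind with the most reads, of which 1 purine-rich locus with 91 and 41 reads is not shown because it lies in a 3' UTR. The 4 were chosen after their values were seen and have runs of at least 6 purines or pyrimidines in capitals. Here near names only the gene of the nearest protein-coding start site. That site was 28.4 kb away for RBM43 and 302 kb away for SLITRK5, and both loci were intergenic.
near RBM43, chr2:152089854-152089878: AGAAAAAcaaattaacaagcagaaa
TENM4 promoter, chr11:79152002-79152026: acacacAGAAAGAGAGGGcgagcga
SNX9 intron, chr6:158196623-158196647: tccaTTTTTCCCCCaattgCTTTTT
near SLITRK5, chr13:88021373-88021397: ttttacttgTTTTCTCCCatgtttt

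Last come the loci of both lists with the most reads that held a GC box, an E2f site, an Ets site or an E-box, also chosen after their values were seen, with the consensus in capitals.
CACNA1C intron, chr12:2301494-2301518: caCCGCCCcctgtttttgttataca
BANP promoter, chr16:88068638-88068662: atGGGCGGGAAAaagcatagcatat
intron of a long noncoding RNA near NEIL3, chr4:178187037-178187061: tgCCGGAAGttatagccctctgcca
IMMP2L intron, chr7:110526439-110526463: aagaaacaCACGTGcacacacatac

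The most-read locus, in an intron of the glycosyltransferase-like gene GTDC1 and 10.8 kb from its nearest start site, had 131 reads in output 1 and 46 in output 2. The intergenic locus on chromosome 22 nearest to CLDN5, which encodes a claudin of tight junctions, had 107 and 50 reads. At the locus 170.2 kb from the start site of the cadherin gene CDH18, 108 reads in output 1 stood beside 37 in output 2. The pyrimidine-rich locus 2.32 kb from the zinc finger gene ZNF239 had 106 and 34 reads, with a run of 16 pyrimidines. The locus 11.9 kb from PPM1F, a protein phosphatase gene, had 103 and 32 reads, and the promoter locus 1.10 kb from the protein-coding start site of HSBP1L1, and nearer to another transcript's start, had 105 and 29. All 6 were absent from the input, and all 6 had more reads in output 1 than in output 2.

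Among promoter loci of both lists, those with the most reads after HSBP1L1 were at TENM4 and OOSP4B. TENM4 encodes a teneurin, a transmembrane protein of neuronal cell contacts, and its locus lay 22 bp from the start site with 102 and 26 reads. The OOSP4B locus lay 908 bp from the start site with 78 and 27 reads. The BANP locus shown above, 8 bp from the start site of a nuclear matrix protein gene, held a GC box and an E2f site that overlap and had 29 and 15 reads.

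Reads were recovered by dividing the deposited signal by the value of 1 read, 3.35 normalized units in output 1 and 18.04 in output 2. The loci of output 1 held 855100 reads and those of output 2 308880, which are the reads at listed loci and not the depth of the libraries. A locus had a median of 9 reads in output 1 (quartiles 5 and 15, highest 131) and of 4 in output 2 (quartiles 3 and 7, highest 50). In output 1, 44.8% of loci had at least 10 reads, against 12.7% in output 2. The reads were not concentrated on a few loci, since the top 1% of loci held 4.88% of the reads of output 1 and 4.55% of those of output 2, and the top 10% held 28.8% and 27.0%.

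A locus absent from the input was tested against a stand-in of 1 output read, and this set the lower edge of each list. In output 1 the weakest listed loci absent from the input had 3 reads, 8516 loci or 11.5% of the list, and 49801 tested loci with at most 2 reads were not listed. In output 2 the weakest had 2 reads, 13971 loci or 24.2%, and 24246 tested loci with at most 1 read were not listed, both numbers being what the ranks behind the q-values leave.

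The same Poisson test on whole reads in place of normalized signal would have listed 58157 loci for output 1 and 20138 for output 2, so the length of the second list rests on the scale of its signal.

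There was also a gap among the strongest loci. No locus absent from the input was listed at 20 reads in output 2, although 165 were listed at 19 reads and 87 at 21, and none was listed at 67 or 68 reads in output 1, although 10 were listed at 66 and 10 at 69. The ranks behind the q-values left room for 135 unlisted loci above those with 19 reads in output 2, and for 9 in output 1. The cause was not tested. A locus of output 1 that was absent from the input and from the list of output 2 therefore had at most 1 read in output 2 or was among those 135.

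Both lists held 50406 loci, 68.0% of the list of output 1 and 87.1% of the list of output 2. Output 1 alone held 23698 loci and output 2 alone 7437. Loci of both lists carried 81.9% of the reads of list 1 and 93.0% of those of list 2. Their median was 11 reads in output 1 and 4 in output 2, against 5 reads at loci of output 1 alone and 2 at loci of output 2 alone. The share of loci that the other list held grew with the reads. It was 34.9% (Wilson 95% interval 33.9 to 35.9) at 3 reads in output 1, 49.9% at 5 reads, 74.3% at 10 reads and 94.97% (93.6 to 96.1) at 20 reads. In output 2 it was 72.1% (71.4 to 72.9) at 2 reads, 89.0% at 4 reads and 99.4% at 10 reads. These intervals, like all others here, cover counting error only, because the reads carry no molecular identifiers and PCR copies are not independent molecules.

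**Figure D1:**
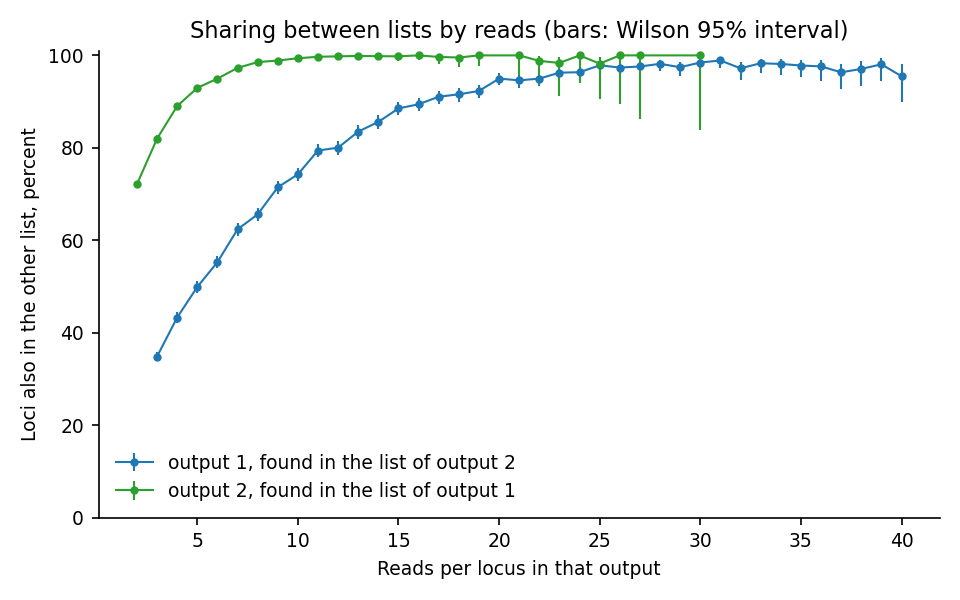
Share of loci absent from the input (vertical axis, percent) that the other list also held, by reads per locus in the named output (horizontal axis), with Wilson 95% intervals for read counts with at least 20 loci. The curve of output 1 starts at 34.9% at 3 reads and reaches 94.97% at 20 reads, and that of output 2 starts at 72.1% at 2 reads.

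Sharing stopped short of complete at high reads in output 1, where 96.2% of 7669 loci with 20 to 29 reads and 97.0% of 3944 loci with 30 or more were also in list 2. Output 1 alone held 410 loci with at least 20 reads, 119 of them with at least 30. The 2 with the most reads were in GPM6A, a neuronal membrane glycoprotein gene (chr4:176884195-176884219, 78 reads), and in an intron of THSD1 (chr13:52955465-52955489, 76 reads). In output 2 alone, 6 loci had at least 20 reads. The highest lay in an intron of GABRG3, a subunit gene of the GABA-A receptor (chr15:27488215-27488239, 33 reads), and in the long noncoding RNA gene LINC02432 (chr4:142228748-142228772, 31 reads). How many of these were lost from the other list by the gap described above was not tested.

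At loci of both lists the reads of output 1 summed to 700492 and those of output 2 to 287145, a ratio of 2.44. The median log2 ratio of output 2 over output 1 was -1.25 with a standard deviation over loci of 0.89. Pearson's r of the reads was 0.65 and Spearman's rank correlation 0.55 over the 50406 loci, a description over loci that were selected in both libraries. The list edges remove low values on both sides, and the relation was also computed at higher reads. Those cuts use the same reads and still take only loci of both lists, so they do not undo that removal. Changes in r and in the ratio between these sets cannot be told apart from the cuts. Over the 19433 loci with at least 20 reads in both outputs together the median log2 ratio was -1.46 and r was 0.45, and over the 6865 loci with at least 10 reads in each it was -0.96 and r was 0.53.

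The split of reads between outputs varied somewhat more than counting alone gives. Among the 19433 loci with at least 20 reads together, the squared deviation from the common ratio was 1.63 times the binomial variance, and 11.8% of loci lay beyond the 95% limit of counting error. More reads in output 2 than in output 1 were found at 443 of these loci, or 2.28%. The 2 largest such differences were in introns of the noncoding RNA genes FTX and JPX of the X inactivation centre (chrX:73197156-73197180, 6 reads in output 1 and 22 in output 2) and in a noncoding RNA on chromosome 1 (chr1:90854527-90854551, 5 and 16 reads). In the other direction stood an intron of CASC3, an exon junction complex gene (chr17:38314914-38314938, 52 and 2 reads), and a locus 13.1 kb from LCORL (chr4:18036591-18036615, 25 and 1 reads). These loci were chosen for their difference, which is given without a test. The LCORL locus also had 2 reads in the input, where a read counted 0.482 normalized units, beside 18.04 in output 2.

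Nearly all loci were absent from the input at the same position, 99.7% in either list. The input held 4748793 loci with a median of 2 reads, and its loci started at 0.166% of the positions of the main chromosomes. Of the listed loci, 190 of output 1 and 189 of output 2 were present in the input, 0.256% and 0.327%, 231 positions in all and 148 of them in both lists. The nearest input locus lay a median of 211 bp away in both lists, and no listed locus beyond those at the identical position started within 2 bp of one. With identical positions included, 453 loci of output 1 (0.612%) and 379 of output 2 (0.656%) overlapped an input locus. Why none started 1 or 2 bp away was not tested. Exact copies of a listed sequence, on either strand, were found neither at another listed locus nor at another input locus.

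Loci present in the input had a median of 7 reads in output 1 and 3 in output 2, with a median of 2 input reads. Of these, the locus with the most output reads was 6.62 kb from ALDH3A2, a fatty aldehyde dehydrogenase gene (chr17:19544821-19544845), with 38 reads in output 1, 25 in output 2 and 2 in the input. Next were a locus far from genes on chromosome 13 (chr13:57916298-57916322), with 31, 18 and 1 reads, and a locus 50.6 kb from the odorant receptor gene OR9Q1 (chr11:57740745-57740769), with 31, 16 and 3. All 3 were higher in both outputs than in the input, which the selection itself required.

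The listed loci were richer in G and C than the input. G and C made up 42.2% of the bases of output 1 loci and 41.8% of output 2 loci, against 37.5% in the input, with a standard deviation over loci of 12.97, 12.85 and 11.36 percentage points. Windows of 25 bp taken every 500 bp along hg19 had 40.9%. Loci with at least 15 G and C bases made up 12.2% of output 1, 11.3% of output 2, 4.52% of the input and 12.03% of the genome windows. At the other end, loci with at most 5 G and C bases were less frequent in the lists (4.90% and 5.06%) than in the input (7.47%) and in the genome windows (8.07%). Base composition was not used to choose the loci, but nearly all of them are positions that the input did not hold.

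Within output 1, G and C were lower at higher reads. The mean was 43.4% at 2 to 3 reads, 42.4% at 6 to 9 reads and 41.1% at 30 or more reads. Output 2 showed the same order, 43.0% at 1 to 2 reads and 40.2% at 10 to 19. Loci of 1 list alone were higher than those of both lists, with 43.5% for output 1 alone and 42.9% for output 2 alone against 41.7%. In the input the order was opposite and small, from 37.4% at 1 read to 38.0% at 10 or more.

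CpG, the dinucleotide that is methylated in vertebrate genomes and is dense in CpG islands, was found in 21.4% of output 1 loci and 20.8% of output 2 loci, in 14.2% of input loci and in 19.03% of genome windows. Input loci weighted to the number of G and C bases of each list gave 18.8% and 18.4%. The bases around a locus within a 500-bp window held 41.3% and 41.1% G and C in the lists and 39.2% in the input. A window with at least 50% G and C and a ratio of observed to expected CpG of at least 0.6 surrounded 1.46% of output 1 loci, 1.30% of output 2 loci and 0.527% of input loci.

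**Figure D2:**
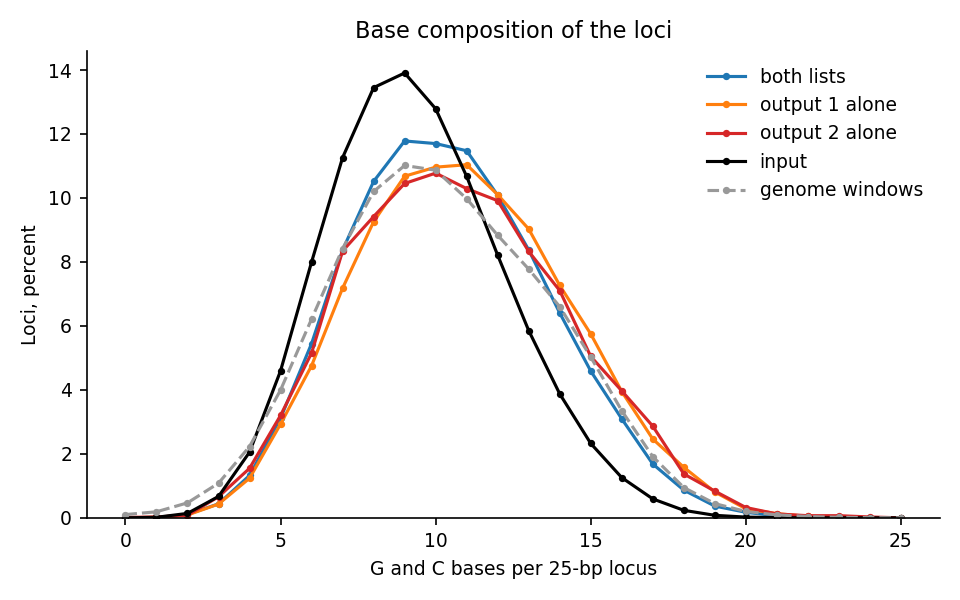
Share of loci (vertical axis, percent) by the number of G and C bases among the 25 of a locus (horizontal axis), for loci of both lists, of 1 list alone, of the input and of 25-bp windows of hg19. The input lies to the left of the 3 classes of listed loci above about 10 G and C bases, with a mean of 37.5% against 41.7%, 43.5% and 42.9%.

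Loci made almost only of purines on one strand, and so of pyrimidines on the other, were more frequent in the lists. At least 20 of 25 bases of 1 class were found in 7.75% of output 1 loci (Wilson 95% interval 7.56 to 7.94, 5737 loci) and in 8.11% of output 2 loci (7.89 to 8.34, 4689 loci), against 3.18% of input loci. Weighted to the G and C of the lists, the input gave 4.09% and 4.003%, so that the ratio was 1.89 and 2.03. The genome windows held 4.17%. This measure was chosen after base counts of the loci had been seen.

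The share of such loci was larger at higher reads. In output 1 it was 6.65% at 2 to 3 reads, 7.93% at 10 to 19 and 10.5% at 30 or more. In output 2 it was 6.61% at 1 to 2 reads, 10.2% at 10 to 19 and 14.0% at 20 or more, the last over 508 loci. Loci of both lists had 8.27%, output 1 alone 6.63% and output 2 alone 7.04%. In the input, by contrast, it stayed at 3.24% at 1 read and 3.18% at 10 or more. Runs of at least 6 of the same base were also more frequent, in 5.80% and 6.03% of listed loci against 4.65% of input loci.

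All words of 6 bases were then counted on both strands together, in 2080 classes, of which 1866 were found in at least 100 loci of output 1. Against the input weighted to G and C, 8 of the 10 highest in output 1 were of A and G alone. AAAAGA was in 5.00% of output 1 loci and 3.54% of input loci, a weighted log2 ratio of 0.82 in output 1 and 0.85 in output 2. AAAAAG stood at 0.82 and 0.85, and AAGAGA at 0.71 and 0.76. The 2 others of the top 10 were CCGCCG, at 0.81 and 0.83, and CCGAGG, at 0.68 in both. The lowest were ACCCCC at -0.71 and -0.70 and CCTACC at -0.71 and -0.64, although ACCCCC stood at 0.18 and 0.13 against the unweighted input. CCCCCC, of pyrimidines alone, was at -0.63 and -0.58 after weighting and at 0.49 and 0.45 before it. These words were counted after base counts of the loci had been seen. Words of A and G alone, or C and T alone, numbered 64 and had a median of 0.30 in both outputs, against -0.04 for the 1802 others in each.

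The 18 consensus motifs were searched on both strands in the 25 bases, and a match is only an occurrence of the letters. GGGCGG, the GC box of Sp and Klf factors, was in 0.350% of output 1 loci (259 loci), in 0.332% of output 2 loci (192) and in 0.125% of input loci, log2 ratios of 1.48 and 1.41 with a counting error of 0.09 and 0.10. Against the input weighted to G and C the ratios were -0.24 and -0.19, and the genome windows held 0.352%. The sign of this motif thus turned with the weighting. TGCGCA, the core of the site of NRF1, a factor of housekeeping promoters, stood at 0.59 and 0.62 and at -0.02 and 0.06 after weighting, and at -0.93 in output 2 among loci with at least 10 reads.

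The E-box, Ets, E2f and full cyclic AMP response motifs were above 0 in both outputs before and after weighting, although after weighting the Ets and E2f values of output 2 lay within their counting errors. CACGTG, the E-box bound by Myc and Usf, was in 168 loci of output 1 and 145 of output 2, with ratios of 0.73 and 0.88 (counting error 0.11 and 0.12) and of 0.24 and 0.42 after weighting. CCGGAAG, bound by Ets factors, was in 56 and 32 loci, with 1.28 and 0.84 (0.19 and 0.25), and 0.50 and 0.12 after weighting. TTTCCCGC, the E2f site of cell cycle genes, was in 18 and 10 loci, with 1.48 and 1.02 (0.34 and 0.45), and 0.83 and 0.42 after weighting. Among loci with at least 10 reads the sign turned for the Ets site in output 2, to -0.62, and for the E2f site in output 1, to -0.25. The full cyclic AMP response element, TGACGTCA, was in 7 and 5 loci, too few to place its ratios of 1.06 and 0.97, whose counting errors were 0.53 and 0.62, or of 0.79 and 0.72 after weighting, and its core TGACGT was at 0.11 and 0.07.

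The octamer, Hnf1, TATA, CCAAT and Tead motifs were less frequent than in the input. ATGCAAAT, the octamer of Oct factors, was at -0.68 and -0.61 (86 and 70 loci) and at -0.34 and -0.31 after weighting. GTTAAT, the core of the site of Hnf1, a factor of kidney and liver epithelium, was at -0.68 and -0.66, and at -0.30 and -0.32 after weighting. TATAAA, the TATA box, was at -0.54 and -0.52 and moved to -0.07 and -0.09. CCAAT, bound by NF-Y, was at -0.31 and -0.27, and CATTCC, bound by Tead factors, at -0.19 and -0.16. After weighting these were at -0.24 and -0.21, and at -0.31 and -0.28. Against the genome windows CCAAT was at 0.01 and 0.05 and CATTCC at -0.02 and 0.01, so these 2 were low only against the input. The octamer was at -0.71 and -0.65 against the windows, GTTAAT at -0.25 and -0.24 and TATAAA at -0.40 and -0.38.

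TGANTCA, the AP-1 site of Fos and Jun, was at -0.25 in output 1 and -0.15 in output 2, AGATAA of Gata factors at -0.25 and -0.21, and TGTTTAC of forkhead factors at -0.18 and -0.17. After weighting the Gata motif was at 0.08 and 0.10 and the forkhead motif at 0.10 and 0.09, with the sign turned. Against the genome windows the AP-1 site was at -0.02 and 0.08, the Gata motif at 0.04 and 0.08 and the forkhead motif at 0.12 and 0.13. AGGTCA of nuclear receptors was at 0.01 and -0.03, AAGATGG of YY1 at 0.09 and -0.03, and GGGANTTCC of NF-kappaB at 0.24 and 0.64 in 31 and 32 loci, with counting errors of 0.26 and 0.25.

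**Figure D3:**
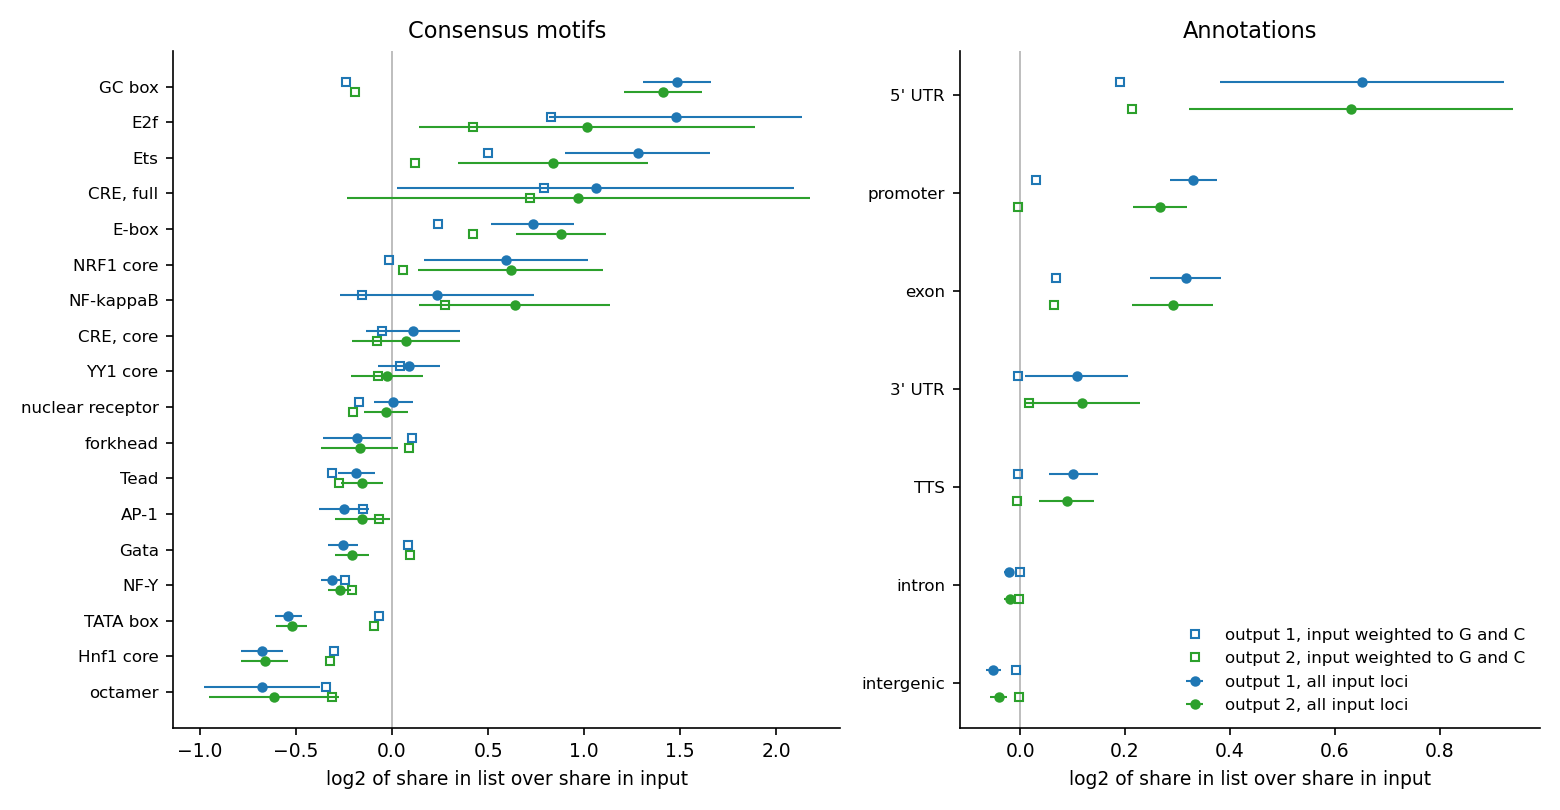
log2 of the share of listed loci over the share of input loci (horizontal axis) for 18 consensus motifs, named by their factors (left), and for annotations (right; TTS is the region around a transcript's end). Filled circles with 95% counting intervals use all input loci, and open squares use input loci weighted to the G and C of the list, blue for output 1 and green for output 2. The GC box moves from 1.48 to -0.24 in output 1, and promoters from 0.33 to 0.03.

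Per chromosome, the lists differed from the input most on chromosomes 22 and 19. Chromosome 22 held 973 loci of output 1 and 735 of output 2, log2 ratios of 0.44 and 0.39 with a counting error of 0.05 in each. Chromosome 19, the most gene-dense, was at 0.41 and 0.38, chromosome 17 at 0.25 and 0.24, and chromosome 16 at 0.20 in both. The lowest was chromosome 4 at -0.16 and -0.15, and then chromosome 13 at -0.12 and -0.13. Against the input weighted to G and C, chromosome 22 was at 0.08 and 0.06, chromosome 19 at 0.03 in both, and chromosome 4 at -0.04 and -0.05. Chromosome Y, which HEK293T cells lack, held 296 loci of output 1 and 238 of output 2, 0.400% and 0.412% of the lists, and 0.407% of the input.

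**Figure D4:**
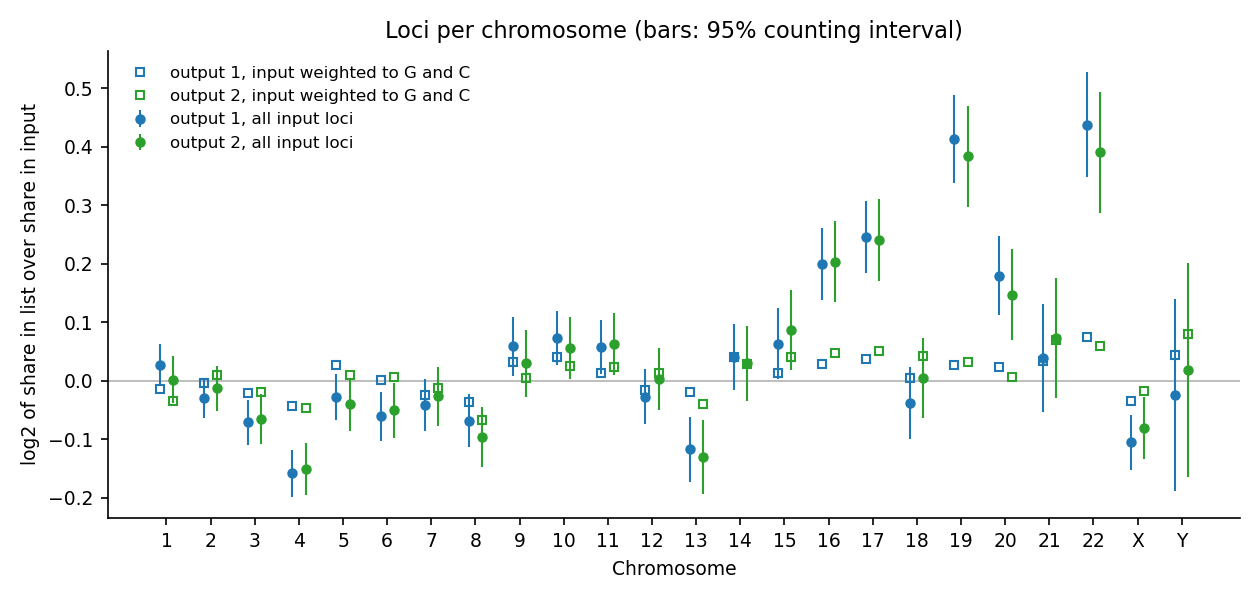
log2 of the share of listed loci over the share of input loci (vertical axis) per chromosome (horizontal axis), with filled circles and 95% counting intervals for all input loci and open squares for input loci weighted to G and C, blue for output 1 and green for output 2. Chromosomes 22 and 19 stand highest, at 0.44 and 0.41 in output 1, and their squares lie at 0.08 and 0.03.

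In 579 bins of 5 Mb with at least 2000 input loci, the loci of either list had a median of 143 per bin. The log2 ratio to the input had a standard deviation over bins of 0.25 and a range from -0.52 to 1.27, and the squared deviation was 4.46 times that of counting. With the input weighted to G and C these were 0.13, -0.37 to 0.39, and 1.07 times. Neighbours lay a median of 25769 bp apart in output 1 and 32938 bp in output 2, and 63 and 36 neighbouring pairs overlapped, 0.0851% and 0.0623% of pairs. In output 1, 2.80% of neighbours lay within 1 kb, and 2.44% would at the same mean distance if spread evenly at random. For output 2 these were 2.24% and 1.91%.

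By annotation of GENCODE transcripts, introns and intergenic sequence held most loci of both lists. Introns held 52.4% of output 1 loci and 52.5% of output 2 loci, against 53.2% of the input, and intergenic sequence 34.0% and 34.3% against 35.3%. Promoters, from 1000 bp upstream to 100 bp downstream of any transcript start, held 5.18% of output 1 loci (5.02 to 5.34, 3836 loci) and 4.96% of output 2 loci (4.78 to 5.14, 2866 loci), against 4.12% of the input and 4.55% of genome windows. The log2 ratios to the input were 0.33 and 0.27 (counting error 0.02 and 0.03), and 0.03 and -0.00 after weighting to G and C. Exons outside untranslated regions held 2.32% and 2.28% against 1.86%, ratios of 0.32 and 0.29, and of 0.07 in both after weighting. The 5' UTR class had 108 and 83 loci, with ratios of 0.65 and 0.63, and 0.19 and 0.21 after weighting.

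In both outputs the share of promoter loci was highest in the class with the fewest reads. The promoter share was 6.09% (5.60 to 6.61) at 2 to 3 reads in output 1, 5.22% at 6 to 9 and 4.77% (4.14 to 5.48) at 30 or more. In output 2 it was 5.51% at 1 to 2 reads, 4.58% at 5 to 9 and 4.72% at 10 to 19. At 20 or more reads in output 2 it was 5.12% (3.52 to 7.39) over 508 loci, an interval that holds the share at 1 to 2 reads. The nearest start site of a protein-coding gene lay a median of 38.4 kb from output 1 loci and 39.1 kb from output 2 loci, against 45.1 kb in the input. Within 1 kb of such a site were 5.46% and 5.25% of loci, against 4.14% of the input, and beyond 100 kb were 33.0% and 33.4% against 35.7%.

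Of the 20136 protein-coding genes of the annotation, 11119 (55.2%) held at least 1 locus of either list in their body, and 8994 (44.7%) at least 1 locus of both lists. Genes with the most loci were very long. DMD, the dystrophin gene of muscle, led with 45 loci of both lists in 2242 kb, followed by CNTNAP2 and PTPRD with 43 each, CSMD1 and RBFOX1 with 42 each, CTNNA2 with 41, FHIT and PDE4D with 36 each, NRXN3 with 35 and DLG2 with 34. PTPRD encodes a receptor tyrosine phosphatase, RBFOX1 a splicing factor of neurons, CTNNA2 a neuronal catenin, PDE4D a cyclic AMP phosphodiesterase and DLG2 a scaffold protein of synapses. Their shares were close to those of the input. DMD held 71 loci of either list where its 4617 input loci would give 79.3 at the input's share, a log2 ratio of -0.15 ± 0.17 (counting error), and the 9 others lay between -0.40 for CNTNAP2 and 0.27 for FHIT.

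Of the 2959 protein-coding genes with at least 200 input loci, 2931 held a locus of either list. The 5 with the highest share over the input share were MSN, VAV2, VPS53, RBFOX3 and RAB31. They were chosen as extremes of the 2959 genes, whose log2 ratios had a standard deviation of 0.67. Counting error alone therefore cannot place these 5 above the input's share. MSN, which encodes the membrane-cytoskeleton linker moesin, held 11 loci where the input share would give 3.55, a log2 ratio of 1.69 ± 0.43. VAV2, a guanine nucleotide exchange factor, held 17 against 5.54, VPS53, a subunit of a vesicle tethering complex, 14 against 4.70, RBFOX3, the gene of the neuronal marker NeuN, 27 against 9.08, and RAB31, a small GTPase of vesicle transport, 11 against 3.88. With the input weighted to G and C, MSN stayed at 1.48, VPS53 at 1.5002 and RAB31 at 1.48, while VAV2 moved from 1.66 to 0.78 and RBFOX3 from 1.60 to 0.86. RBFOX3 held 26 loci of output 1 and 17 of output 2, 16 of them in both.

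At the other end, 28 genes of this size held no locus. RIN2, an interactor of Ras and Rab proteins, held none in 245 kb, where its 445 input loci would give 7.64 at the input's share. KTN1, the kinesin-binding protein kinectin, would have held 5.56, CREB3L2, a transcription factor of the endoplasmic reticulum, 4.21, and PIGK, of the transfer of GPI anchors, 4.19. Counting error of 0 loci allows up to 3 for a gene fixed in advance. The 4 genes named were chosen as extremes of 2959 genes, so that limit cannot place them below the input's share. No test over libraries was possible for them.

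Lists of genes were also counted. Of 18 genes of kidney development, 10 held a locus of either list (55.6%, beside 55.2% of all protein-coding genes), 30 loci where the input share would give 28.5, and the median log2 ratio of the 12 with at least 20 input loci was 0.34, beside 0.31 for the 13155 protein-coding genes with as many. PAX2, a transcription factor of the developing kidney, held 9 loci of either list, 5 of them in both, a ratio of 1.957 ± 0.47 that was 1.496 after weighting to G and C. EYA1, its partner in the renal field, held 9 in a body of 395 kb, a ratio of -0.58 ± 0.47. WT1, the Wilms tumour gene, held none among 78 input loci, and WNT4 and RET held 2 each.

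For all protein-coding genes the share with a locus was 55.2%, and the median log2 ratio of those with at least 20 input loci was 0.31. Of 18 genes of renal epithelium, 14 held a locus (77.8%), 37 loci where the input share would give 41.96, with a median of 0.21 over 15 genes. Their median length was 47.9 kb, beside 27.2 kb for all protein-coding genes. LRP2, the endocytic receptor megalin of the proximal tubule, held 9 (0.34 ± 0.47) while CUBN, its partner cubilin, held 4 (-1.15 ± 0.68). Of 16 neuronal genes known from HEK293 cells, 9 held a locus (56.3%), 57 loci where the input share would give 56.7, with a median of 0.15 over 10 genes. SYT1, a calcium sensor of synaptic vesicles, held 17 loci, 14 of both lists, at -0.26 ± 0.34, and STMN2, a neuronal stathmin, held 4. Of 16 cell cycle targets of E2F, 8 held a locus (50%), 29 loci where the input share would give 18.6, with a median of 0.47 over 12 genes. POLA1, of DNA polymerase alpha, held 10 in a body of 303 kb, a ratio of 0.06 ± 0.45, MCM2 and MCM6, of the replicative helicase, held 4 each, PCNA, the sliding clamp, 2, and RRM2, of ribonucleotide reductase, 6. Of 12 genes listed for the liver, 6 held a locus (50%), 7 loci where the input share would give 9.39, with a median of 0.37 over 9 genes. After weighting to G and C the medians were 0.07, 0.11, 0.18, 0.41 and 0.06 in the order named, beside 0.23 over all genes, and the pseudocount of 0.5 loci raises the ratios of short genes.

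The study cloned single sites for its reporter assays in HEK293T, and these were looked up by a start within 2 bp. Of 40 sites, 9 were in the lists, 5 in both and 4 in output 1 alone, and 31 were in neither. The listed site with the most reads lay 2.99 kb from the start site of GPRC5A, a retinoic acid induced receptor gene with 26 and 16 reads. A site 1.39 kb from HES4, a Notch target gene, had 7 and 3 reads, and one in an intron of GRHL3, an epithelial transcription factor, had 3 reads in output 1 alone. Of 5 further sites used to compare fragment lengths, 2 were listed, at HES4 again and in RAD51B, a DNA repair gene, with 6 and 2 reads. The sites were chosen from lists of effective loci, so their presence in the lists is no independent result, and the list of HEK293T output 3 was not used here.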

How the data were processed

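By the study's methods, recovered fragments were trimmed with cutadapt and aligned to hg19 with BWA, which the submitters' processing notes also name, and unique alignments of 25 bp with up to 2 mismatches were kept. The authors scaled the reads per position to a normalized signal and deposited, for each output, the positions that passed a Poisson test against the input. Their q-values were all below 0.01, at most 0.00562 and 0.00018, although the study's methods state a looser threshold. In that test, positions absent from the input were given the value of 1 output read. The deposited lists also hold the authors' p-value and q-value, used here only to count the loci tested and for a stricter threshold. The p-values were obtained again from the signals at 100% of loci.

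Signals were divided by the value of 1 read, and all were whole within 0.001 reads. Shares were computed over chromosomes 1 to 22, X and Y, with the input or 25-bp windows of hg19 every 500 bp as background and a pseudocount of 0.5 loci, and as a second background with input loci weighted to the number of G and C bases of a list. Loci were annotated by their centre in the order promoter, TTS (100 bp before to 1000 bp after a transcript's end), UTR, exon, intron, intergenic, with GENCODE transcripts lifted to GRCh37. Genes named were the 10 with the most loci of both lists and, among those with at least 200 input loci, the 5 highest and 5 lowest shares over the input. One gene that this rule names is not reported here. Loci named were those with the most reads in each class and the largest differences. Loci chosen for a motif or for purines or pyrimidines left out chromosome 8. The members and lists were chosen with earlier results of these data known. The lists share the input and most positions, so no test over libraries was made, and ± values cover counting error only. Functions were tested on simulated data. Python 3.11.15, numpy 2.4.6, pandas 2.3.3, scipy 1.17.1, pysam 0.24.0 and matplotlib 3.10.9 were used.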

Additional observations from a re-analysis of the deposited data

How the results depend on the processing

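Of 443 values recomputed under other settings, 360 stayed within their limit and 71 moved beyond it. The other 12 turned in sign from a value whose counting interval left out 0. The limit was 1.5 times for counts of loci and the 95% counting interval for most other values. For median reads and the read ratio between outputs it was the spread over loci. Values within the limit could thus move by more than their counting error. With the wider promoter, the exon log2 ratio of output 1 went from 0.32 to 0.26, with a counting error of 0.03. Counting all log2 ratios, 34 changed sign, 22 of them from a value whose interval held 0, such as TGTTTAC in output 2. With the Poisson test on whole reads, list 2 held 20138 loci and both lists 19037. Either list held 57843 to 74104 loci when 1 output was left out. With at least 10 reads, the share absent from the input was 99.8% in both lists, the median 16 and 12 reads, G and C 41.5% and 40.2%, and the promoter log2 ratio 0.23 and 0.21. G and C of output 1 was 42.1% at a q-value below 0.001, and of loci in both lists 41.7% for either output. The promoter ratio of output 1 was 0.24 for loci in both lists and 0.26 with promoters from 2000 bp upstream to 500 bp downstream. With the input weighted to G and C it was 0.031 for output 1 and -0.0039 for output 2, whose sign turned, and signs also turned for chromosome 6 (0.0019 and 0.0060), GGGCGG (-0.24 and -0.19), TGCGCA in output 1 (-0.018), TGTTTAC (0.10 and 0.087) and AGATAA (0.081 and 0.096). At 10 or more reads they turned for CCGGAAG (-0.62) and TGCGCA (-0.93) in output 2 and TTTCCCGC (-0.25) in output 1. Except where the weighting itself sets the base composition, the cause was not tested. The genome windows, the weighting of genes and of purine-rich loci, and the words of 6 bases were chosen after seeing the data. The share of repeat-masked sequence was not run. No paired analysis was possible because the result comes from no test over replicates and the input is 1 library.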
